A study of Mus musculus with 16 samples.

Results

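The EGF receptor family was followed in whole lungs of newborn mice after a single exposure to ozone. It was taken as 9 genes, the 6 ligand genes Areg, Ereg, Hbegf, Tgfa, Btc and Nrg1 and the 3 receptor genes Egfr, Erbb2 and Erbb3. Its members were all probes that are not controls and that the array design names for these genes, which gave 26 of 41174 probes, 13 for ligands and 13 for receptors. Of these, 24 probes, at least 1 for each gene, were well above background on 4 or more of the 16 arrays and entered the tests. Areg and Hbegf had 1 probe each.

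BALB/c pups aged 3 days, of an inbred strain with no genetic change named in the labels, were exposed for 3 h, either to 1000 ppb of ozone or to filtered air. Whole lungs were collected at 6 h or at 24 h from the end of exposure. The 4 groups were thus ozone 6 h, air 6 h, ozone 24 h and air 24 h, with 4 lungs each and 1 array per lung, drawn at random from the larger groups exposed. Pups stayed with a foster dam during either exposure, and each time point was run on its own with air littermates. The study asks how the newborn lung responds to acute ozone, so ozone was compared with air of the same time.

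Ligands of this family are made as precursors anchored in the cell membrane and are released by metalloproteases. Amphiregulin (Areg) and TGF-alpha bind the EGF receptor, HB-EGF, betacellulin and epiregulin bind the EGF receptor and Erbb4, and neuregulin (Nrg1) binds Erbb3 and Erbb4. Erbb2 has no ligand of its own and pairs with the other receptors, while Erbb3 has little kinase activity and signals through its partner. In lung, the family is known for growth and repair of the airway and alveolar epithelium.

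Each array spot carries a probe of 60 bases, and what was measured is binding of labelled RNA to it. The 4 probes below lie in coding sequence. They belong to Areg and Erbb3, the genes called below, and to Nrg1 and Erbb2, which were not called. The Erbb2 and Erbb3 probes shown, probe 2 of each, are not the ones that stand for these genes in the tests over genes. All 4 are written 5′ to 3′ as in the array design, with positions on mouse build mm9. The Areg probe (chr5:91570090-91570149, plus strand) is the single probe behind all Areg values. The Nrg1 probe (chr8:32959791-32959850, minus strand) lies in the part that encodes the EGF-like domain, the receptor-binding part of neuregulins. The Erbb2 probe (chr11:98295824-98295883, plus strand) and the Erbb3 probe (chr10:128009195-128009254, minus strand) lie in the part that encodes the kinase domain.
Areg probe 1: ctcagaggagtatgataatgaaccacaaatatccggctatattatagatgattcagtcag
Nrg1 probe 1: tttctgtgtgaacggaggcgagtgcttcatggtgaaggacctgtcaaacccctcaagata
Erbb2 probe 2: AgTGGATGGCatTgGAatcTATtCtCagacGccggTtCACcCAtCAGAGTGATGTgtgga
Erbb3 probe 2: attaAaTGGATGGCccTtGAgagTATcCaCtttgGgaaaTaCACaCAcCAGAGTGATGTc
Capitals mark bases that Erbb2 and Erbb3 share when these probes are aligned without gaps, 35 of 56 aligned bases or 62.5%. The longest shared stretches sit at the start and near the end, and the middle differs. Erbb3 probes 2 and 3 overlap by 40 bases, all identical, so they are not separate readings of the gene.

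Values are on a log2 scale and are relative to the 75th percentile signal of the same array, so 0 is the signal at that percentile and 1 unit is a doubling. They compare groups for 1 probe and do not rank genes by abundance. The 75th percentile lay between 574 and 946 signal units. The share of spots that stood well above background ran from 65.0% to 83.9% and was highest on ozone 6 h replicate 3, against at most 72.5% on the other arrays of that time, and arrays of the ozone 6 h group correlated least across genes (lowest r = 0.97). The 5 markers of lung epithelium and the 5 of alveolar type II cells were well above background on all arrays. A gene is called changed at an adjusted p under 0.05 (limma, Benjamini-Hochberg over 21631 genes, two-sided), and errors of differences are standard errors (SE) with 4 lungs per group. In bulk lung, fewer cells of a type and less RNA per cell cannot be told apart.

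**Figure D1:**
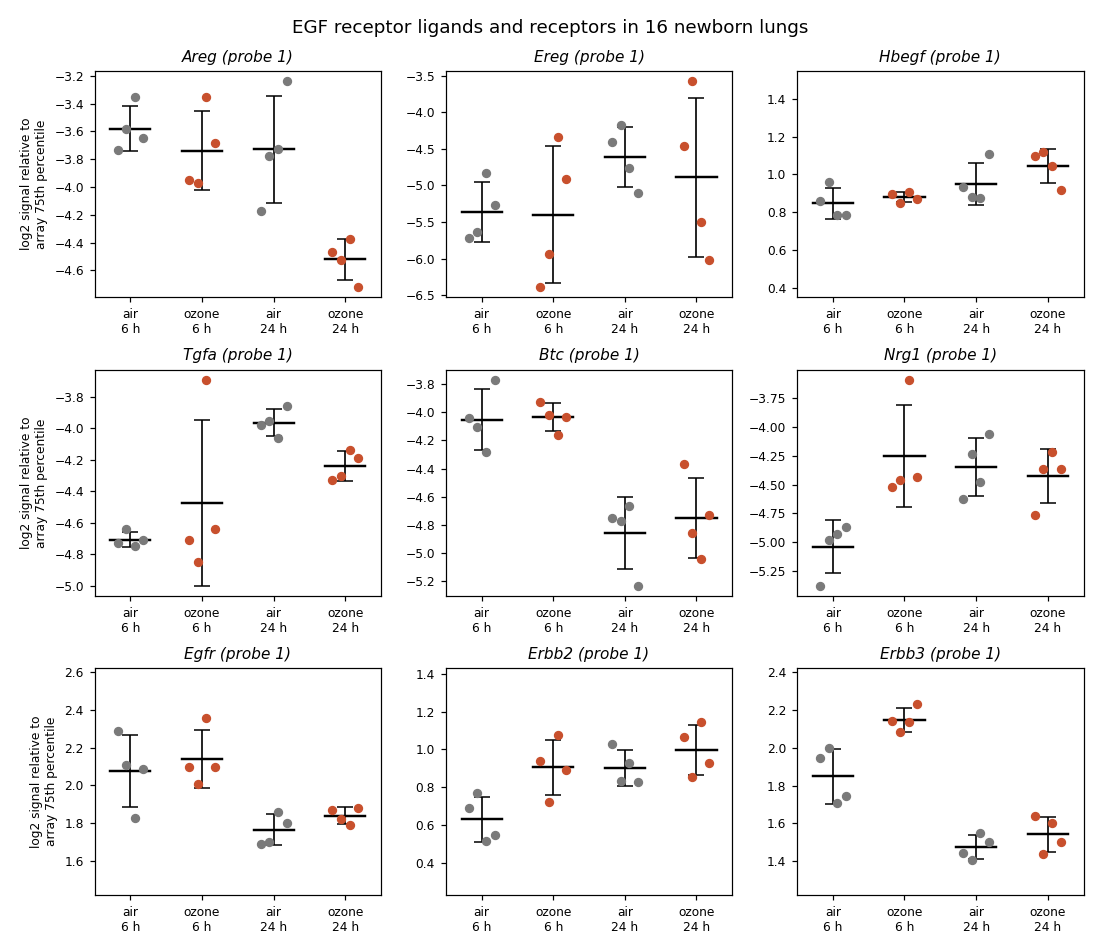
Log2 signal relative to the 75th percentile of each array (vertical axis) for the kept probe of each gene that is brightest over all 16 arrays, by exposure and time (horizontal axis). Points are single lungs, thick bars are group means and thin bars are SD with n = 4. The ozone points of Areg at 24 h lie below all air points, from -4.72 to -4.37 against -4.17 to -3.24. Those of Erbb3 at 6 h lie above all air points, from 2.08 to 2.23 against 1.71 to 2.00. Over all genes, the groups did not overlap for 9.49% at 6 h and 11.8% at 24 h.

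Of the 9 genes, Erbb3 was higher at 6 h after ozone and Areg was lower at 24 h, and no other member was called at either time. At 6 h, 1 of 9 was called and it was higher, where 4.48% of all genes were called and 1.36% were called higher. At 24 h, 1 of 9 was called and it was lower, where 2.01% of all genes were called and 1.32% were called lower. A single call among 9 genes does not set the family apart from these shares. The median difference of the members was 0.06 at 6 h, beside 0.07 over all genes, and 0.07 at 24 h, beside 0.02. Among all genes, 295 were higher and 673 lower at 6 h, and 149 and 286 at 24 h. With arrays scaled to their median in place of the 75th percentile these became 37 and 872 at 6 h and 46 and 210 at 24 h, and with normexp background correction 152 and 802, and 323 and 322.

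**Figure D2:**
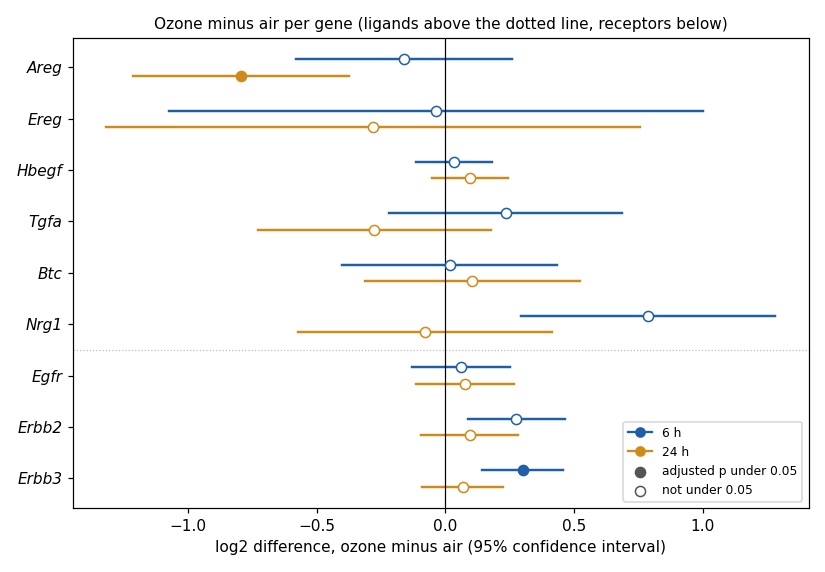
Log2 difference, ozone minus air, for each gene (vertical axis), with its 95% confidence interval from the fit over all genes, at 6 h (blue) and 24 h (orange). Filled points have an adjusted p under 0.05. The filled points are Erbb3 at 6 h (0.30) and Areg at 24 h (-0.79), and the interval of Nrg1 at 6 h, from 0.29 to 1.28, does not reach 0 although its adjusted p was 0.0645.

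Areg encodes amphiregulin, a ligand of the EGF receptor linked to tissue repair. At 24 h, its values were -4.47, -4.52, -4.37 and -4.72 in the ozone lungs. The air lungs of 24 h had -4.17, -3.78, -3.73 and -3.24. All 4 ozone lungs lay below all 4 air lungs, and for 11.8% of all genes the groups of 24 h did not overlap in one direction or the other. Areg fell by 0.79 ± 0.20 (SE) on the log2 scale, a level 1.73-fold lower (95% confidence interval 1.30 to 2.32, adjusted p = 0.0488). At 6 h, the values were -3.95, -3.97, -3.35 and -3.68 after ozone and -3.73, -3.58, -3.36 and -3.65 in air. These groups overlapped, with a difference of -0.16 ± 0.20 (adjusted p = 0.67). The ozone effects at the 2 times differed by -0.63 ± 0.28, which did not pass (adjusted p = 0.36), so the fall was not shown to be particular to 24 h.

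The Areg probe was dim but well above background on all 16 arrays. By slide, the 24 h difference was -0.52 for replicates 1 and 2 and -1.07 for replicates 3 and 4, below 0 on both. The adjusted p lay near its threshold, and in the fit over 32343 probes it was 0.0518. The call held under 7 of 15 alternatives. It held without ozone 6 h replicate 3 (0.025), air 6 h replicate 3 (0.0464) or air 24 h replicate 1 (0.0268), and was lost without any other single array, with values from -0.84 to -0.63 and the highest adjusted p, 0.158, without air 24 h replicate 4. Markers of mast cells and basophils, which can make amphiregulin, had a summed level at 24 h of 6.80 to 7.91 times the 75th percentile signal after ozone and 4.44 to 6.25 in air. By limma 0 of its 6 tested genes were called and 4 had an unadjusted p under 0.05, where 13.3% of all genes did. The median difference was 0.44, but the basophil gene Mcpt8 differed by -0.27 ± 0.20, and Ms4a2 was not kept. For type 2 lymphoid cells, another source, 0 of 5 tested genes were called, Il5 was not kept, and the sums were 2.00 to 2.33 after ozone and 1.71 to 2.26 in air. Their median difference was 0.32, and 2 had an unadjusted p under 0.05 (Il7r 0.59, Il1rl1 0.42), while Il13 (-0.35) and Rora (-0.06) were negative. Of 7 macrophage genes, Csf1r and Mpeg1 were called higher, where 2.01% of all genes were called at 24 h. All 7 differences were positive, with a median of 0.41, and 6 had an unadjusted p under 0.05. The macrophage sums were 13.7 to 17.9 after ozone and 10.8 to 12.1 in air. At 24 h, all tested differences were positive in the lists of alveolar type I, alveolar type II, club, basal and ciliated cells. In that order, the medians were 0.07, 0.12, 0.27, 0.36 and 0.36. An unadjusted p under 0.05 was seen for 2 of 5, 0 of 5, 2 of 5, 1 of 5 and 4 of 4 genes. The ciliated sums were 17.66 to 19.05 after ozone and 12.53 to 15.72 in air, with Cdhr3 not kept. The sums of the other lists overlapped between ozone and air. Lung epithelium had 4 of 5 positive. Of these genes, Tppp3 of ciliated cells was called higher (0.40, adjusted p = 0.0305). Differences were mostly negative, as for Areg, in the lists of neutrophil, erythroid, endothelial and mesenchymal genes. Of 6 tested neutrophil genes 5 differences were negative, with 0 called and 2 unadjusted p under 0.05 (Retnlg -0.75, Cxcr2 -0.68), Ly6g not kept, and sums of 55.7 to 79.8 after ozone and 66.7 to 92.7 in air. Of 5 erythroid genes 3 were negative and Klf1 was called lower (-0.99, adjusted p = 0.0304), while Alas2 (0.42) and Hba-a1 (0.29) were positive. The erythroid sums were 173.1 to 322.7 after ozone and 139.3 to 345.2 in air. Of 5 endothelial genes 5 were negative and 0 called by limma, with sums of 78.29 to 87.95 after ozone and 80.46 to 92.1 in air. Of 5 mesenchymal genes 4 were negative and 0 called by limma, with sums of 126.8 to 146.1 after ozone and 147.1 to 160 in air. The part of these cells in the Areg result was not tested.

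Tgfa encodes TGF-alpha, a ligand of the EGF receptor made by epithelium and macrophages. At 24 h its values were -4.33, -4.30, -4.14 and -4.19 after ozone and -3.98, -3.96, -4.06 and -3.86 in air. The groups did not overlap, as for 11.8% of all genes at 24 h in one direction or the other. Yet the difference of -0.28 ± 0.21 did not pass (adjusted p = 0.687), with an interval from -0.73 to 0.18. Its SE came from the arrays of both times. The SD at 24 h was 0.09 after ozone and 0.09 in air. With only the 8 arrays of 24 h, the SE was 0.12 (adjusted p = 0.286). Without ozone 6 h replicate 3, the SE was 0.13 (adjusted p = 0.338). The difference passed in neither fit. At 6 h the values were -4.71, -4.85, -3.69 and -4.64 after ozone and -4.73, -4.64, -4.75 and -4.71 in air. Ozone 6 h replicate 3 stood above the other 7 lungs of that time, and the difference of 0.23 ± 0.21 became -0.03 without that array. The first Tgfa probe is printed as 10 spots on each array, with a median SD of 0.15 between spots. At 6 h the second probe was well above background on ozone replicate 3 and on no other array, so no fold is given for it.

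Hbegf encodes HB-EGF, a ligand that binds the EGF receptor and Erbb4. Its values were 0.85 to 0.91 after ozone and 0.78 to 0.96 in air at 6 h, and 0.92 to 1.12 and 0.87 to 1.11 at 24 h. The differences were 0.03 ± 0.07 and 0.10 ± 0.07, neither called, and their intervals ended at 0.18 and 0.24. Hbegf was thus the most closely measured ligand, with the smallest SE of the 6 ligand genes. A rise of more than 1.183-fold at either time lay outside its intervals in the reported fit. Under alternatives the difference ran from -0.13 to 0.10 at 6 h and from -0.01 to 0.20 at 24 h.

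Btc encodes betacellulin, and 1 of its 2 probes entered the tests. Its values were -4.16 to -3.92 after ozone and -4.29 to -3.77 in air at 6 h, and -5.05 to -4.37 and -5.24 to -4.67 at 24 h. The differences were 0.02 ± 0.20 and 0.11 ± 0.20, neither called. Levels at 24 h lay below those at 6 h in both exposures, a comparison in which time cannot be told apart from the slides and the separate runs.

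Ereg, the gene of epiregulin, was barely measured. Its kept probe lies at chr5:91480914-91480973 on the minus strand. The probe of the RefSeq transcript lies at chr5:91521659-91521720 on the plus strand and was well above background on 1 of 16 arrays. The kept probe comes from a clone sequence of the opposite strand, so it may not report epiregulin messenger RNA. Its differences were -0.04 ± 0.49 at 6 h and -0.28 ± 0.49 at 24 h, neither called, with intervals from -1.07 to 1.00 and from -1.32 to 0.76. On 2 ozone and 2 air arrays of 6 h it was well above background, and on all 8 of 24 h. The probes of Areg, Ereg and Btc all lie on chromosome 5.

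Nrg1 encodes neuregulin, the ligand of Erbb3 and Erbb4, and had 5 probes, all kept. Probe 1, in the EGF-like domain, stood for the gene because its mean over all 16 arrays was the highest. At 6 h it read -4.52, -4.46, -3.59 and -4.43 after ozone. Air lungs of 6 h read -5.38, -4.98, -4.93 and -4.87. All 4 ozone lungs lay above all 4 air lungs, and for 9.49% of all genes the groups of 6 h did not overlap in one direction or the other. It was well above background on 4 ozone arrays and 3 air arrays of that time. The difference of 0.79 ± 0.23 did not pass (adjusted p = 0.0645), and with only probes well above background on all 16 arrays, where probe 2 stands for the gene, it was 0.26 (adjusted p = 0.513). Replicate 3 was again the highest ozone lung, and without it the difference was 0.57 (adjusted p = 0.139). By slide it was 0.69 for replicates 1 and 2 and 0.88 for replicates 3 and 4, and with the slide as a block the adjusted p was 0.0499.

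The other Nrg1 probes gave differences of 0.24 to 0.84 at 6 h, none called. Probe 2, from a clone, was the brighter one at 6 h and was well above background on all arrays. It also had all ozone lungs above all air lungs, -4.28, -4.16, -4.06 and -4.07 against -4.41, -4.46, -4.40 and -4.37, with a difference of 0.26 ± 0.24 (adjusted p = 0.556). Probes 4 and 5 were well above background on ozone replicate 3 alone at 6 h. Their readings thus rest on 1 array. Without replicate 3 their differences were -0.13 and -0.03. At 24 h probe 1 differed by -0.08 ± 0.23 (adjusted p = 0.956), and the effects at the 2 times differed by -0.87 ± 0.33 (adjusted p = 0.281). The other probes differed by -0.68 to 0.01 at 24 h, none called. For probe 5 (-0.68 ± 0.47, adjusted p = 0.663 in the fit over probes) all ozone lungs lay below all air lungs of 24 h. Over all genes, the groups of 24 h did not overlap for 11.8% in one direction or the other. Schwann cells and nerve, a known site of neuregulin signalling, had 0 of 4 tested markers called at 6 h, with Cdh19 not kept. Their summed level was 3.62 to 4.27 after ozone and 3.08 to 4.04 in air, and their part in the Nrg1 values was not tested.

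Erbb3 encodes the receptor of neuregulin and had 5 probes, all kept. The brightest, at chr10:128004749-128004808 on the minus strand, read 2.14, 2.08, 2.14 and 2.23 after ozone at 6 h. Air lungs of 6 h read 1.95, 2.00, 1.71 and 1.74. All 4 ozone lungs lay above all 4 air lungs, where 9.49% of all genes had no overlap in one direction or the other. Erbb3 rose by 0.30 ± 0.07 (SE) on the log2 scale, 1.23-fold (95% confidence interval 1.104 to 1.373, adjusted p = 0.0317). Replicate 3 of ozone was not the highest here. At 24 h the values were 1.638, 1.436, 1.6 and 1.501 after ozone and 1.446, 1.408, 1.551 and 1.5 in air, which overlapped (difference 0.07 ± 0.07, adjusted p = 0.819). The effects at the 2 times differed by -0.23 ± 0.11, which did not pass (adjusted p = 0.374).

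Within the slide of replicates 1 and 2 the 6 h difference of Erbb3 was 0.14 (adjusted p = 0.569), and within that of replicates 3 and 4 it was 0.46 (adjusted p = 0.0236). Median scaling moved the median of all genes at 6 h from 0.07 to -0.09 and gave Erbb3 a difference of 0.14 (adjusted p = 0.624). Relative to that median, the difference was 0.23 under either scaling. Both scalings subtract a constant from each array, so this match was fixed in advance and says nothing about Erbb3. Relative to the median of all genes, Erbb3 differed by 0.08 with normexp and by 0.33 with quantile normalization. The call held under 7 of 15 alternatives. It was lost without ozone 6 h replicates 1, 2, 3 or 4 (adjusted p = 0.0629, 0.0503, 0.0713 and 0.0674) and without air 6 h replicates 3 or 4 (0.074 and 0.13). The other 4 probes of Erbb3, all dim, gave positive differences of 0.44 to 0.59, none called. Probe 2, shown above, read -4.14, -4.25, -3.20 and -4.28 after ozone and -4.93, -4.28, -4.40 and -4.44 in air, a difference of 0.55 ± 0.29 that fell to 0.29 without replicate 3. Without replicate 3, probe 3 gave 0.14, probe 4 gave -0.09 and probe 5 gave 0.36. At 6 h probe 5 was well above background on ozone replicate 3 and on no other array. At 24 h, probes 2 to 5 gave -0.32 to 0.01.

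Erbb3 is a receptor of epithelium. At 6 h, 21.0% of all genes had an unadjusted p under 0.05, the share beside which the counts below stand. Of 5 markers of lung epithelium, 0 were called at that time, with a median difference of 0.18 and 1 unadjusted p under 0.05. Their summed level was 79.8 to 84.8 times the 75th percentile after ozone and 58.0 to 84.2 in air. Basal cell markers had 0 of 5 called and 2 with an unadjusted p under 0.05, a median difference of 0.65, and sums of 2.92 to 8.05 after ozone and 2.20 to 7.28 in air. Lists of other epithelial cells differed in sign, with 0 genes called by limma. Of ciliated cell markers 3 of 4 tested were negative (median -0.24, 3 unadjusted p under 0.05, Cdhr3 not kept), with sums of 10.65 to 12.02 after ozone and 11.0 to 14.2 in air. Of alveolar type I markers 4 of 5 were negative (median -0.04, 0 unadjusted p under 0.05), with sums of 89.9 to 104.2 and 89.6 to 100.4. Of club cell markers 3 of 5 were negative (median -0.0011, 1 unadjusted p under 0.05), with sums of 613 to 757 and 698 to 829. Of alveolar type II markers 2 of 5 were negative (median 0.07), with sums of 801.9 to 920.2 and 785.7 to 920.3. In that list 2 had an unadjusted p under 0.05, Abca3 (0.30) and Sftpa1 (-0.18). Of squamous markers, typical of oesophagus, Sprr3, Krtdap and Dsg3 were not kept, and Krt4 (1.80 ± 0.67) and Krt13 (0.54 ± 0.20) both had an unadjusted p under 0.05, with sums of 0.401 to 0.840 after ozone and 0.306 to 0.716 in air. Outside epithelium, medians at 6 h were 0.31 for erythroid, 0.26 for mesothelial, 0.21 for neutrophil, 0.21 for endothelial and 0.20 for type 2 lymphoid lists. They were 0.16 for Schwann and nerve, 0.03 for mesenchyme, -0.02 for macrophage, -0.21 for heart muscle and -0.37 for mast cell and basophil lists. Of the genes in these lists, Mrc1 of macrophages was called lower (-0.39, adjusted p = 0.0416), where 4.48% of all genes were called. The part of epithelial cell content in the Erbb3 result was not tested.

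Erbb2, the partner receptor without a ligand, was not called at 6 h. The first of its 2 probes read 0.94, 0.72, 1.07 and 0.89 after ozone and 0.69, 0.77, 0.51 and 0.55 in air. Of the 4 ozone lungs, 3 lay above all air lungs. The difference was 0.28 ± 0.09 (adjusted p = 0.0853), 0.10 within the slide of replicates 1 and 2 and 0.45 within that of replicates 3 and 4. It passed when air 6 h replicate 2 was left out (0.32, adjusted p = 0.0469). The probe in the kinase part, shown above, gave 0.54 ± 0.25, and 0.21 without ozone replicate 3. At 24 h the differences of these probes were 0.10 ± 0.09 and -0.13 ± 0.25, neither called.

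Egfr, the receptor of most of these ligands, showed no called difference at any of its 6 probes. The brightest, from the full-length transcript, read 2.10, 2.01, 2.36 and 2.10 after ozone and 2.29, 2.11, 1.83 and 2.09 in air at 6 h. It read 1.87, 1.82, 1.79 and 1.88 after ozone and 1.69, 1.70, 1.86 and 1.80 in air at 24 h. The groups overlapped at both times, with differences of 0.06 ± 0.09 and 0.08 ± 0.09. The intervals ran from -0.13 to 0.25 and from -0.11 to 0.27, so a rise of more than 1.204-fold lay outside them at both times. The third probe, from a shorter transcript variant, gave 0.03 ± 0.13 and 0.06 ± 0.13, so no difference was called in either form. Probes 1 and 3 are printed as 10 spots each, with a median SD between spots of 0.05 and 0.08.

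**Figure D3:**
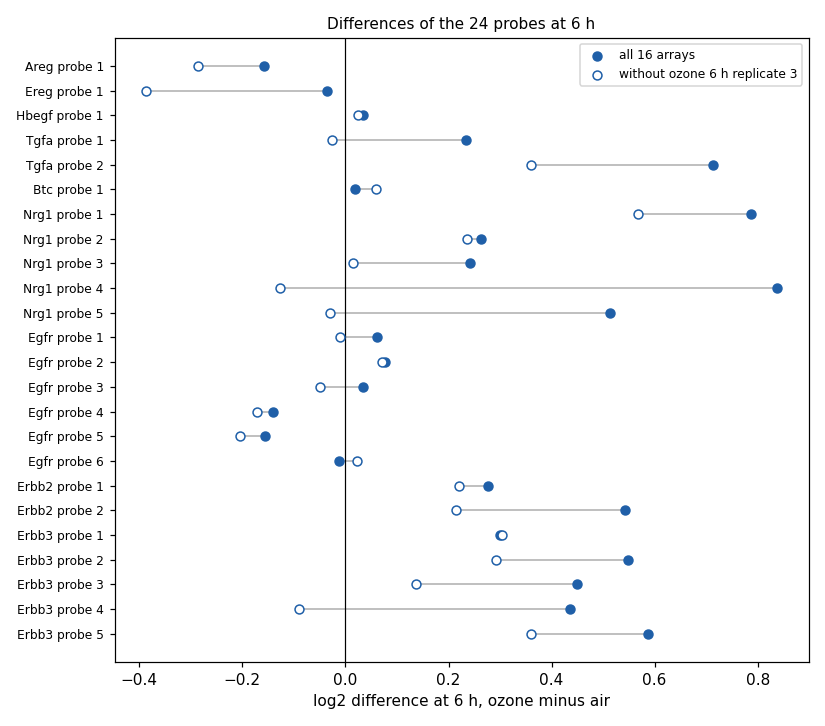
Log2 difference at 6 h, ozone minus air (horizontal axis), for the 24 kept probes (vertical axis), with all 16 arrays (filled) and without ozone 6 h replicate 3 (open). Most ligand and receptor probes move to the left when that array is left out, while the brightest Erbb3 probe stays at 0.30.

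Across the 24 kept probes, 1 was called at 6 h, the brightest Erbb3 probe, where 3.68% of all probes were called. By limma 0 were called at 24 h, beside 1.56% of all probes. At 6 h, 19 of 24 differences were positive, with a median of 0.25 beside 0.08 for all probes. Without ozone 6 h replicate 3, the array with the most spots above background, 14 of 24 were positive, the median was 0.02 and 0 were called, a comparison chosen after the data were seen. At 24 h, 9 of 24 were positive. Probes of 1 gene share their samples, so these counts describe the arrays and are not separate tests.

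No member passed the test of whether its ozone effect differed between the times. Of 9 genes 0 were called by limma, beside 0.0647% of all genes, and 3 had an unadjusted p under 0.05, namely Areg, Nrg1 and Erbb3, beside 12.5% of all genes. Of 24 probes 0 were called, beside 0.0649% of all probes. The median of the members was -0.23, beside -0.04 for all genes.

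Together, 87 genes were tested that release these ligands, carry their signal, restrain it or respond to it. By limma 1 of 87 was called at 6 h and 0 at 24 h, beside 4.48% and 2.01% of all genes. An unadjusted p under 0.05 was seen for 12 and 13 of them. Over all genes, that p was under 0.05 for 21.0% at 6 h and 13.3% at 24 h. Their medians were 0.04 and -0.05, beside 0.07 and 0.02 for all genes. Of the other ligands and the fourth receptor, 3 of 6 were kept, namely Egf, Epgn and Nrg4, and 0 were called. Egf, the founding ligand, differed by -0.22 ± 0.15 at 6 h and -0.24 ± 0.15 at 24 h.

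Of the 12 genes of ligand release, 0 were called by limma at either time, with medians of 0.09 and -0.07. An unadjusted p under 0.05 was seen for 2 and 1 of them, beside 21.0% and 13.3% of all genes. Adam17, the main sheddase of amphiregulin and TGF-alpha, differed by -0.12 ± 0.14 and -0.20 ± 0.14. Its partners Rhbdf2 (0.19 ± 0.09) and Frmd8 (0.24 ± 0.10) and the metalloprotease genes Adam15 (0.26 ± 0.11) and Adam8 (0.19 ± 0.09) had the smallest p at 6 h. At 24 h Timp3, an inhibitor of Adam17, differed by -0.30 ± 0.12 (adjusted p = 0.249), followed by Rhbdf2 (0.17 ± 0.09) and Adam10 (0.28 ± 0.20).

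Of 28 adaptors and kinases, 1 was called at 6 h, Grb2, and it was higher. Over all genes, 4.48% were called at 6 h and 1.36% were called higher. By limma 0 of the list were called at 24 h, beside 2.01% of all genes. The medians were 0.09 and -0.003, beside 0.07 and 0.02 for all genes. An unadjusted p under 0.05 was seen for 5 and 1 of them, beside 21.0% and 13.3% of all genes. Grb2 encodes the adaptor that links these receptors to Ras. Its values were 3.25 to 3.51 after ozone and 2.99 to 3.21 in air. These did not overlap, as for 9.49% of all genes at 6 h in one direction or the other. The difference was 0.28 ± 0.07 (adjusted p = 0.0404), and 0.08 ± 0.07 at 24 h. The call held under 6 of 15 alternatives and in 6 of 16 fits without 1 array, namely air replicate 2 and ozone replicate 4 of 6 h, and ozone replicates 1, 2 and 3 and air replicate 3 of 24 h. In the other 10 its adjusted p was at most 0.137. With median scaling the difference was 0.11 (adjusted p = 0.684). Sos2 (0.27 ± 0.09), the exchange factor that Grb2 carries, Src (0.22 ± 0.08) and Stat5a (0.31 ± 0.13) followed at 6 h. At 24 h, Pik3r1 (0.27 ± 0.14), a regulatory subunit gene of PI3 kinase, Stat5a (0.24 ± 0.13) and Stat5b (0.18 ± 0.09) were among the genes of this list with the smallest p, none called.

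Of 20 tested negative regulators, 0 were called by limma at either time, with medians of 0.02 and -0.05. An unadjusted p under 0.05 was seen for 3 and 4 of them, beside 21.0% and 13.3% of all genes. Errfi1, which encodes an inhibitor that binds the receptors' kinase, had the smallest p at both times. It differed by -0.50 ± 0.17 at 6 h (adjusted p = 0.11) and -0.46 ± 0.17 at 24 h (adjusted p = 0.215). The feedback inhibitors Spry1 (-0.19 ± 0.07) and Socs4 (-0.21 ± 0.09) and Lrig3 (-0.18 ± 0.09) followed at 6 h. Lrig1 (0.31 ± 0.12), which promotes loss of the receptors, Spred2 (-0.26 ± 0.11) and Lrig2 (0.26 ± 0.11) followed at 24 h.

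Of 24 tested early target genes, 0 were called by limma at either time and 2 and 7 had an unadjusted p under 0.05 (21.0% and 13.3% of all genes), with medians of -0.02 and -0.06. Ccnd1, the cyclin gene of the first growth phase, came closest at 6 h, at -0.37 ± 0.10 (adjusted p = 0.0518). Etv5 (0.34 ± 0.15), Ccn1 (-0.33 ± 0.17) and Atf3 (-0.51 ± 0.27) followed. At 24 h, Ier3 (0.34 ± 0.10, adjusted p = 0.0938), Egr1 (0.61 ± 0.18, adjusted p = 0.109), Klf4 (-0.34 ± 0.12) and Egr2 (0.50 ± 0.19) had the smallest p. At either time 9 of the 24 differences were positive and 15 negative.

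For each called member, the 3 genes most like it were found by Pearson r over the 16 arrays, after the mean of each time point was subtracted. For Areg these were Sp6 (r = 0.87), Mybl2 (0.87) and Evc (0.86). Mybl2, a transcription factor gene of dividing cells, was itself called lower at 24 h (-0.66, adjusted p = 0.00611), while Sp6 (-0.33) and Evc (-0.30) were not called. For Erbb3 they were Btbd2 (r = 0.94), Trpm4 (0.93) and Osgin1 (0.92). Osgin1, an oxidative stress gene, was called higher at 6 h (0.75, adjusted p = 0.000801), as was Trpm4 (0.30, adjusted p = 0.0328), an ion channel gene, while Btbd2 (0.18) was not. These values share arrays, scaling and the exposure groups, and are given as a description.

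**Figure D4:**
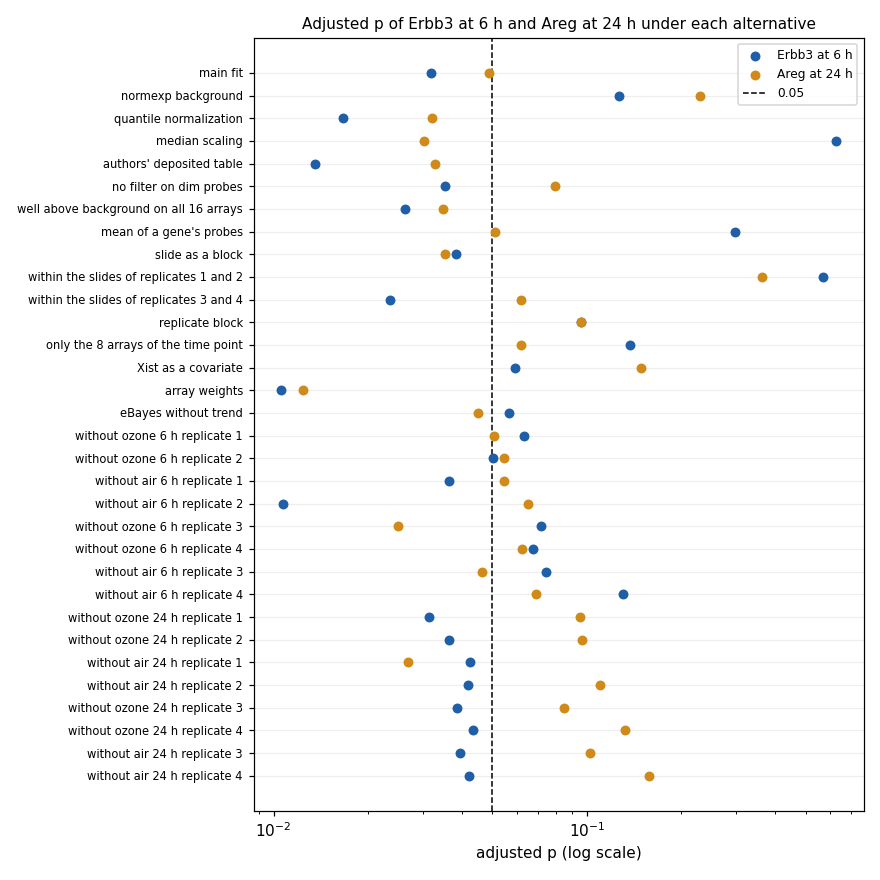
Adjusted p on a log scale (horizontal axis) of Erbb3 at 6 h (blue) and Areg at 24 h (orange) in the reported fit and under each alternative (vertical axis). The dashed line is 0.05. Points of both genes lie on either side of the line, from 0.0106 to 0.624 for Erbb3 and from 0.0124 to 0.363 for Areg.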

How the data were processed

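RNA from 16 whole lungs was hybridised to 1-colour arrays. Signal intensities and the 0 or 1 flags of each spot were deposited per array as scanner output of Agilent Feature Extraction 10.7.1.1, per the file headers, with background already subtracted in the processed signal. The authors' deposited table of log2 values was normalized apart for each time point and served as an alternative only.

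The processed signal was taken as log2 minus the 75th percentile of the 41174 probes that are not controls. Spots marked uneven were left out. The 32343 probes kept stood well above background on 4 or more of the 16 arrays, and the brightest probe stood for each of 21631 genes. Differences were fitted on all 16 arrays by lmFit and eBayes (with trend) of limma 3.58.1, under R 4.3.3, with Benjamini-Hochberg adjustment. The script was tested on simulated data. Ozone was set against air of the same time. Levels between times were not tested, since time, slide and run coincide. Each of the 4 slides holds 2 ozone and 2 air arrays of 1 time. The number of arrays limits the precision.

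All 9 members are described. From each pathway list and time, up to 4 genes with the smallest p are named (1 is not reported here), along with Adam17 at 6 h, which was chosen after its value was seen. For each called member, the 3 genes of highest correlation are named. Members and lists were chosen with earlier results of these data known. Alternatives covered background correction, scaling, filtering, probe choice, slide, replicate number, array weights and single arrays left out. No genome was used, and positions are those of the array design.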

Additional observations from a re-analysis of the deposited data

Results flagged for a closer look

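The Nrg1 value of ozone 6 h replicate 3 stood far from the other arrays of its group. It was -3.59 on the log2 scale, and the nearest array was at -4.43. The gap was 0.908 of the group's range, above Dixon's 95% critical value for 4 samples. Of 36 groups examined (9 genes in 4 groups), 1 was flagged, and chance flags about 1 in 20 groups. The same array had the highest share of spots well above background, 83.9%. The part of that array's signal in the Nrg1 value was not tested.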

How the results depend on the processing

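Over the 9 genes and 3 comparisons, 336 of 390 values under alternatives kept their direction and side of the threshold, 16 lost a call, 1 gained one and 37 changed sign, 0 of these with a call. With 1 array left out, 389 of 432 did, 19 lost a call, 1 gained one and 23 changed sign. Members called at 6 h (1) became 0 with normexp, median scaling, the mean of a gene's probes, the slides of replicates 1 and 2, the replicate block, the 8 arrays of the time alone, Xist as a covariate or eBayes without trend, and 2 with the slide as a block. At 24 h (1) they became 0 with normexp, no filter, the mean of probes, either pair of slides, the replicate block, the 8 arrays alone or Xist. With 1 array left out they ranged from 0 to 2 and from 0 to 1. All genes called at 6 h (968) became 53 within the slides of replicates 1 and 2, 247 with the replicate block, 100 with 8 arrays, 558 with Xist, 1814 with array weights, 546 without trend, and 196 to 1687 with 1 array left out. At 24 h (435) they became 256 with median scaling, 47 and 255 within slides, 261 with the replicate block, 245 with Xist, 1738 with array weights, and 263 to 530 with 1 array left out. For the difference between times (14) they became 536 with normexp, 38 with quantile normalization, 1 with median scaling, 6 with the slide as a block, 0 within either pair of slides, 1 with the replicate block, 441 with array weights, 4 without trend, and 0 to 263 with 1 array left out. The cause was not tested.

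Sign changes at 6 h were Areg 0.18 and Ereg 0.30 with normexp, Ereg 0.41 and Btc -0.068 within the slides of replicates 3 and 4, and Ereg 0.11 with Xist. With median scaling Hbegf was -0.13, Btc -0.15 and Egfr -0.10. Within the slides of replicates 1 and 2 Hbegf was -0.036, Tgfa -0.094 and Egfr -0.15. With quantile normalization Tgfa was -0.11 and Btc -0.40, and in the authors' deposited table -0.099 and -0.40. With array weights Btc was -0.099 and Egfr -0.0198, and with the mean of probes Egfr was -0.023. At 24 h Ereg was 0.27 within the slides of replicates 1 and 2 and 0.0188 with Xist, Hbegf -0.0115 within the slides of replicates 3 and 4, Btc -0.57 with normexp, and Btc -0.0217 and Nrg1 0.0235 with array weights. With the mean of probes Egfr was -0.062, Erbb2 -0.0169 and Erbb3 -0.11. For the difference between times Ereg was 0.28 with quantile normalization, 0.31 in the authors' deposited table and 0.76 within the slides of replicates 1 and 2, Hbegf -0.12 and Egfr -0.27 within the slides of replicates 3 and 4, and Btc -0.76 with normexp. Egfr was -0.0436 with quantile normalization, -0.0472 in the authors' deposited table, -0.0392 with the mean of probes and -0.0193 with Xist.

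With 1 array left out, the values whose sign changed had these ranges over the 16 fits. At 6 h these were Ereg from -0.387 to 0.294, Tgfa from -0.0257 to 0.359, Btc from -0.0604 to 0.112 and Egfr from -0.0219 to 0.132. At 24 h these were Ereg from -0.718 to 0.0974, Btc from -0.0221 to 0.203 and Nrg1 from -0.171 to 0.0324. For the difference these were Ereg from -0.682 to 0.133, Btc from -0.0399 to 0.185 and Egfr from -0.0556 to 0.0985.

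Same-numbered ozone and air arrays had correlated deviations of 0.05 to 0.14 at 6 h and -0.007 to 0.20 at 24 h. The numbers were thus not shown to pair the lungs. All ozone and air pairs of the same slide ran from -0.05 to 0.15 at 6 h and from -0.007 to 0.43 at 24 h. Pairs across slides ran from -0.17 to 0.02 and from -0.37 to 0.02. The reported fit had no slide term, and the slide as a block was an alternative. With the replicate block, 0 members were called at either time (adjusted p 0.0955 for Erbb3 and 0.0961 for Areg).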
